A study of Mus musculus with 6 samples.

Results

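The macrophage and microglia genes described here are 32 genes that tissue macrophages use or read, from the receptor for the growth factor CSF1 to complement, immune adaptors, lysosomal proteins and scavenger receptors. Each gene was represented by the probe set that mapped to it alone and had the highest mean log2 signal over all arrays, and all 32 were found, of 18193 genes with a probe set of their own. The data were 6 microarrays, each of the retinas of a single embryo, 3 of WT and 3 of OC1-KO embryos, the latter deficient for the transcription factor Onecut1. The labels give the stage as E14 and the series text as E14.5, and both genotypes came from littermates on a mixed background, with R1 embryonic stem cells and a Swiss strain named and crosses to C57Bl/6 for a few generations. Embryos are numbered 1 to 3 in each genotype, and no source used here states that equal numbers mark a litter or a day.

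Macrophages enter the embryonic nervous system from the yolk sac by way of the blood and the surrounding mesenchyme, and those that settle in the neural tissue become microglia. Their survival depends on the receptor Csf1r, which binds the ligands CSF1 and IL-34, the latter made largely by neurons. In the developing retina these cells clear dying cells, for which they use complement C1q, receptors that signal through ITAM adaptors, and the lysosome. The transcription factor PU.1, encoded by the member Spi1, binds purine-rich sites with the core GAGGAA in many genes of this lineage.

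The PU.1 core is the one sequence feature of the members' promoters that was searched. GAGGAA, read on either strand in the 250 bases before a RefSeq start of the GRCm38.p6 build, was found for 14 of the 25 members listed in the promoter table, or 56%, against 25.9% of 27025 genes. Members without an entry were Cd14, Csf1r, C1qa, Il34, Spi1, P2ry6 and Tyrobp. Promoters of 3 members are printed to show where the letters lie, chosen among those whose signal was higher in every OC1-KO embryo than in the WT embryo of the same number: Cd53, a tetraspanin of leukocytes, Trem2, a lipid-sensing receptor of microglia, and C1qc, a chain of C1q. Capitals mark GAGGAA or its reverse complement TTCCTC, and each sequence runs 5′ to 3′ along the gene's strand.
Cd53, chr3:106790150-106790399, minus strand: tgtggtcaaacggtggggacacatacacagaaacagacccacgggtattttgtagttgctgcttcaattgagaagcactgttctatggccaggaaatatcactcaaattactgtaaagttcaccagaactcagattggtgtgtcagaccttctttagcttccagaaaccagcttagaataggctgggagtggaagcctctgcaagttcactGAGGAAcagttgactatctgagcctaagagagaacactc
Trem2, chr17:48346151-48346400, plus strand: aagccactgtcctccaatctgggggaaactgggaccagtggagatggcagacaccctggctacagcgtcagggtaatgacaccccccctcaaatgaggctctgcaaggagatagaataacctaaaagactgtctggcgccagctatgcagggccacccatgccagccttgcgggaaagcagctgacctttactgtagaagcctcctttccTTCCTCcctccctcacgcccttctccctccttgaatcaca
C1qc, chr4:136892915-136893164, minus strand: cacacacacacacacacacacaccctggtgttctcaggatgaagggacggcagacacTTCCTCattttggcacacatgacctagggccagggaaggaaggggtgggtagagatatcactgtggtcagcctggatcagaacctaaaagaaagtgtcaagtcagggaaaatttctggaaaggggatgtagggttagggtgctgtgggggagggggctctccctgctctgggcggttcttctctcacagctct
In Cd53 the core lies on the gene's own strand, and in Trem2 and C1qc on the opposite strand. Of the other members higher in each OC1-KO embryo than in the WT embryo of its number, Fcgr3, Cd68 and Apoe had a match. Fcer1g, P2ry12 and Ly86 had none, and Tyrobp had no entry. Such a match is a description of the letters and was not tied to binding of the factor.

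The arrays had median signals of 85.0 to 104, and 43.4 to 46.7% of probe sets on each exceeded a log2 signal of 7. The arrays of WT embryo 3 and OC1-KO embryo 3 stood apart from the other 4. Red blood cell genes summed to a signal of 16714 in WT 3 and 24124 in OC1-KO 3, against 219 to 887 elsewhere, and lens genes to 24324 and 11996, against 278 to 455. Both arrays are kept below, and values without them are given where they bear on a result. The 6 retinal genes measured summed to 68526 to 103874 on every array. The targeted gene did not separate the genotypes: on its brighter probe set Onecut1 measured 9.25, 8.76 and 9.005 in the WT retinas and 9.02, 8.31 and 9.67 in the OC1-KO retinas. The sources used here do not place this probe set relative to the deletion, and it therefore checks nothing about the labels.

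Most of the macrophage and microglia genes were at low signal in these retinas. A mean log2 signal above 7 in either genotype, the threshold used to keep a probe set, was reached by 9 of the 32 members (28.1%), compared with 57.9% of all genes. The 9 were Csf1r, Csf1, C1qa, Tyrobp, Cd53, P2ry12, Ctss, Apoe and Ly86. Tyrobp and Cd53 passed only through the OC1-KO mean, since their WT means were 6.68 and 6.78. With the embryos numbered 3 left out, 8 members passed. At the other end, 8 members had a mean under 5 over the 6 arrays, where 31.8% of all probe sets lay, and the SD within a genotype had a median of 0.56 among members below the threshold and 0.31 among those above it.

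**Figure D1:**
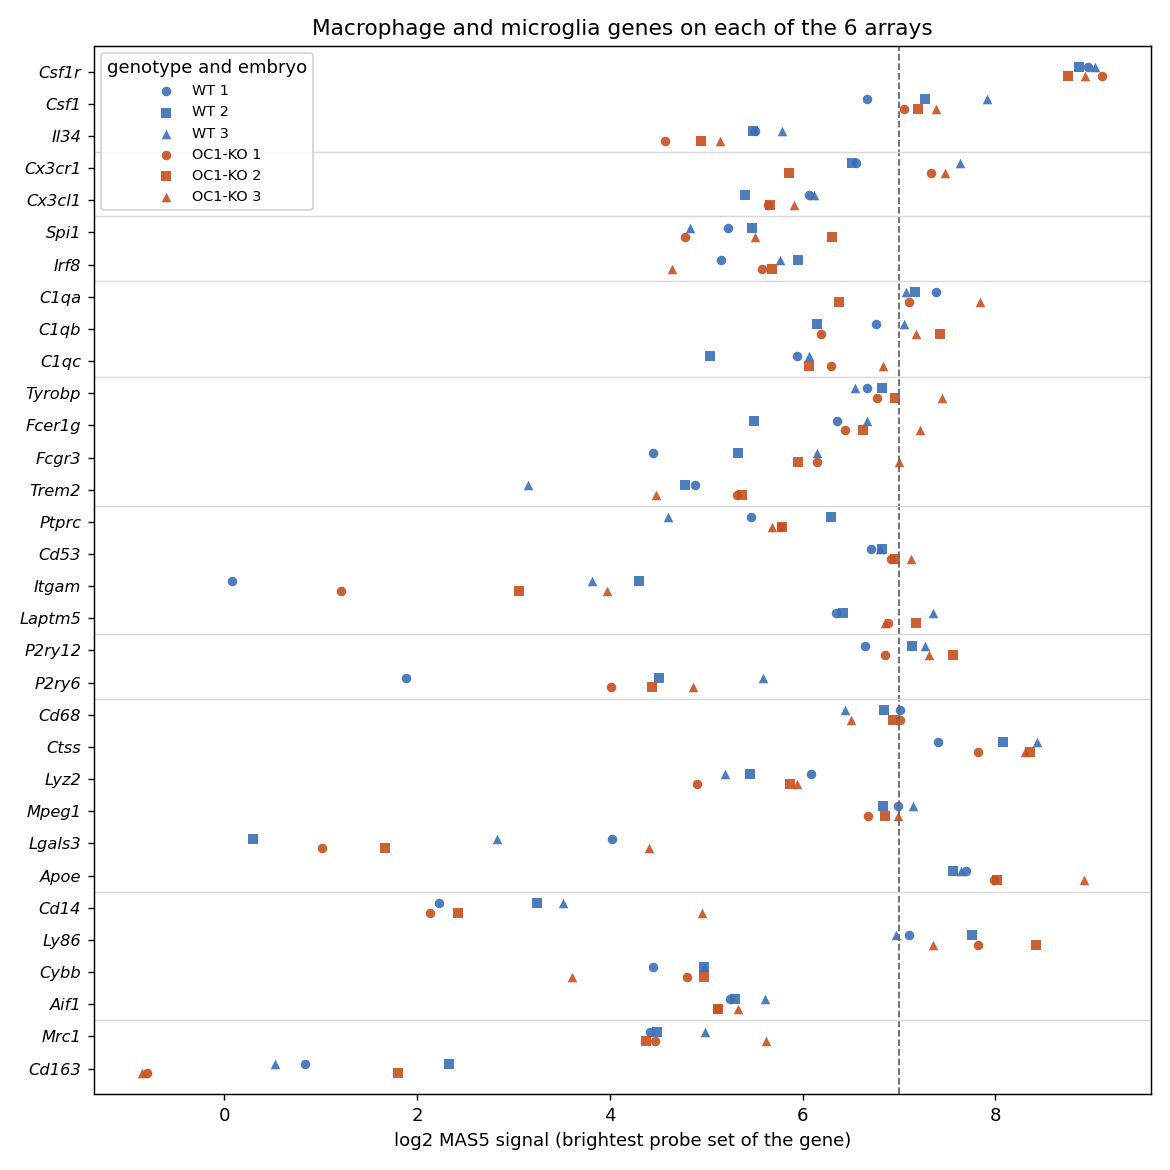
Log2 signal (horizontal axis) of the brightest probe set of each of the 32 genes on each of the 6 arrays, with WT in blue, OC1-KO in orange, and the shape giving the embryo number. Grey lines separate groups of genes by role and the dashed line marks the threshold of 7. In 9 genes the mean of at least 1 genotype lies beyond it, and Itgam, P2ry6, Lgals3, Cd14 and Cd163 scatter most.

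No member differed between the genotypes past the adjusted threshold. Among the 20888 probe sets kept, limma called 0 at an adjusted p under 0.05 (0.0%), and the adjusted value was 1.00 for every member. With no adjustment, 77 probe sets were higher in OC1-KO at p under 0.05 (0.369%) and 133 lower (0.637%), among them 1 member higher, Apoe, and 0 members lower. Of the 32 members, 19 had a higher mean and 13 a lower mean in OC1-KO, with a median difference of 0.18 on the log2 scale, beside -0.01 for all probe sets kept. Among the 9 members above the signal threshold the median was 0.22, and without WT 1 it was 0.038. Tyrobp and Cd53 are among these 9 only through their OC1-KO means. Over the members with a mean above 7 in both genotypes the median was 0.19. With single arrays or both embryos numbered 3 left out, the median over all 32 members ranged from 0.06 without WT 1 to 0.35 without OC1-KO 1, and was 0.11 without OC1-KO 3 and 0.10 without both embryos numbered 3. In bulk tissue, fewer cells of a type and less RNA per cell cannot be told apart, and this holds for every value below.

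The receptor of the CSF1 axis did not separate the genotypes. Csf1r, the tyrosine kinase receptor that sustains macrophages, measured 8.96, 8.87 and 9.03 in WT embryos 1, 2 and 3, and 9.11, 8.75 and 8.93 in OC1-KO embryos 1, 2 and 3. The groups overlapped throughout, and the difference was -0.02 ± 0.16 (limma SE, n = 3 per genotype, as for every difference below). Its ligand Csf1 measured 6.67, 7.27 and 7.92 in WT and 7.05, 7.20 and 7.39 in OC1-KO retinas. The difference was -0.07 ± 0.31, with the highest and the lowest values both in WT. Over the 4 probe sets of Csf1 the differences ran from -0.78 to 0.14.

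The other ligand, IL-34, was the member of the axis whose genotypes did not overlap. Il34 was measured at 5.50, 5.49 and 5.79 in WT and at 4.58, 4.95 and 5.14 in OC1-KO retinas. The 3 OC1-KO retinas were all below the lowest WT retina, with a difference of -0.70 ± 0.23 and an unadjusted limma p of 0.025 in the fit to all probe sets (adjusted p = 1.00). Its probe set was below the signal threshold. Of all 45037 probe sets, 2.88% had all OC1-KO values below all WT values, and 1.54% were lower at an unadjusted p under 0.05. Leaving out single arrays or both embryos numbered 3 moved the difference between -0.83 and -0.55. The unadjusted limma p stayed under 0.05 without WT 1 (0.048) or OC1-KO 3 (0.022), was 0.051 to 0.078 without any other array or without both embryos numbered 3, and was 0.162 with an intensity trend. With an offset of 32 added to the signal before log2 the difference was -0.38. It was lower in all 3 pairs of equally numbered embryos.

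Fractalkine and its receptor form the other ligand and receptor pair, through which neurons signal to microglia. Cx3cr1, the receptor, gave 6.55, 6.51 and 7.63 in WT and 7.33, 5.85 and 7.47 in OC1-KO retinas, a difference of -0.01 ± 0.56. Cx3cl1, the membrane-bound ligand, gave 6.07, 5.40 and 6.12 in WT and 5.64, 5.66 and 5.91 in OC1-KO retinas, a difference of -0.13 ± 0.27. The 4 probe sets of Cx3cl1 disagreed, with differences from -2.43 to 0.31, all below the signal threshold, and their mean gave -0.81 with an unadjusted limma p of 0.122. On the brightest probe set of both genes the genotypes overlapped, and for Cx3cr1 embryo 3 had the highest value in each genotype. On the second Cx3cr1 probe set embryo 3 had the lowest value in each, 2.94 in WT and 2.48 in OC1-KO. The transcription factors of the lineage were low as well. Spi1 (PU.1) measured 5.22, 5.47 and 4.83 in WT and 4.78, 6.30 and 5.51 in OC1-KO retinas, with a difference of 0.35 ± 0.43. Irf8, its partner in microglial development, measured 5.16, 5.95 and 5.76 in WT and 5.58, 5.68 and 4.65 in OC1-KO retinas, with a difference of -0.32 ± 0.38. Both overlapped between the genotypes, and the mean of the 2 probe sets of Irf8 had the other sign, 0.39.

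The 3 chains of C1q, the recognition molecule of the classical complement pathway, gave differences of both signs. C1qa measured 7.39, 7.16 and 7.07 in WT and 7.10, 6.38 and 7.84 in OC1-KO retinas, so that the OC1-KO values lay on both sides of the WT values (-0.10 ± 0.35). C1qb measured 6.76, 6.15 and 7.05 in WT and 6.19, 7.43 and 7.18 in OC1-KO retinas (0.28 ± 0.42), and the mean of its 3 probe sets had the opposite sign, -0.25. For C1qc the values were 5.94, 5.04 and 6.07 in WT and 6.30, 6.06 and 6.83 in OC1-KO retinas, a difference of 0.71 ± 0.37 with an unadjusted limma p of 0.106. The genotypes of C1qc overlapped by 1 value, WT 3 being slightly above OC1-KO 2, and each OC1-KO embryo was above the WT embryo of its number. Without WT 2 the C1qc difference was 0.39, and with the offset of 32 it was 0.47.

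On their brightest probe sets, every one of the 4 ITAM members also had higher values in all 3 pairs. Tyrobp, the adaptor (DAP12) that couples TREM2 to the kinase SYK, measured 6.67, 6.82 and 6.54 in WT and 6.77, 6.96 and 7.45 in OC1-KO retinas, a difference of 0.38 ± 0.21 with an unadjusted limma p of 0.110. Its ranges overlapped, and 0.12 remained of the difference without the embryos numbered 3. Fcer1g, the shared gamma chain of Fc receptors, measured 6.36, 5.50 and 6.66 in WT and 6.44, 6.63 and 7.21 in OC1-KO retinas (0.59 ± 0.39). Fcgr3, a low-affinity IgG receptor, measured 4.45, 5.32 and 6.15 in WT and 6.15, 5.96 and 6.999 in OC1-KO retinas (1.06 ± 0.52). Trem2 measured 4.88, 4.78 and 3.15 in WT and 5.32, 5.37 and 4.48 in OC1-KO retinas (0.78 ± 0.56), embryo 3 being the lowest of each genotype. Of these 4 only Tyrobp passed the signal threshold. Their size depended on single arrays: the difference was 0.19 for Tyrobp without OC1-KO 3, 0.25 for Fcer1g without WT 2 and 0.36 without OC1-KO 3, 0.63 for Fcgr3 without WT 1, and 0.22 for Trem2 without WT 3. With the offset of 32 it was 0.65 for Fcgr3 and 0.31 for Trem2, and the mean of the 2 Trem2 probe sets gave 0.45. The second Trem2 probe set was not higher in every pair, with pair differences of 1.22, -1.90 and 1.01 and a mean difference of 0.11. Over all probe sets 10.7% were higher in 3 of 3 pairs and 12.3% lower, and among the 32 members 10 were higher and 3 lower.

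**Figure D2:**
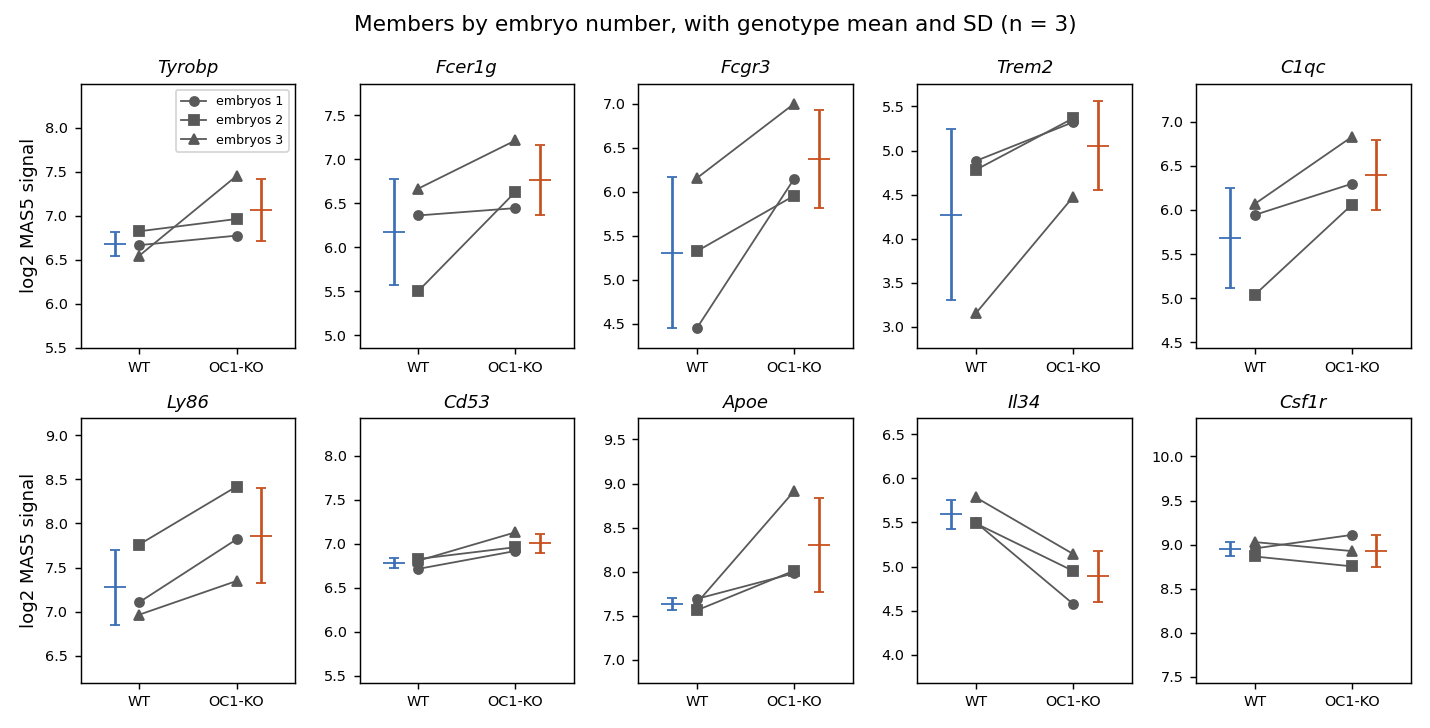
Log2 signal (vertical axis, each panel spanning the same range of log2 units) of 10 members in WT and OC1-KO retinas, with grey lines joining embryos of the same number and crossbars giving the genotype mean ± SD (n = 3). The lines run upward in all 3 pairs for Tyrobp, Fcer1g, Fcgr3, Trem2, C1qc, Ly86, Cd53 and Apoe, downward for Il34, and both ways for Csf1r. The panels were picked and do not represent all 32 members, of which 10 were higher and 3 lower in all 3 pairs.

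The 10 members higher in 3 of 3 pairs on their brightest probe sets were C1qc, the 4 ITAM genes, Cd53, P2ry12, Cd68, Apoe and Ly86. The 3 lower were Il34, Aif1 and Cd163. In pair 1 of Cd68 the difference was 0.00. After quantile normalization 8 were higher and 3 lower. In embryos 1 and 2 alone, 12 members were higher in both pairs and 5 lower in both, against 26.1% and 21.9% of all probe sets. With the embryo number as a block in limma, 2 of the 9 members above the threshold were higher at an unadjusted p under 0.05, Apoe and Ly86, with unadjusted limma p of 0.024 and 0.004 and adjusted p of 0.999, and 0 were lower, beside 1.57% of probe sets kept higher and 2.81% lower. In the same limma block fit to all probe sets (adjusted p = 1.00 for each), 4 of the 32 were higher, C1qc (0.034), Fcgr3 (0.029), Trem2 (0.046) and Ly86 (0.030), and 2 lower, Il34 (0.019) and Cd163 (0.023), the unadjusted p of each standing in brackets, beside 2.08% and 2.25%.

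Among the leukocyte surface genes, Cd53 was the member whose genotypes did not overlap. It measured 6.71, 6.83 and 6.81 in WT and 6.92, 6.96 and 7.13 in OC1-KO retinas, with a difference of 0.22 ± 0.14 and an unadjusted limma p of 0.163. The difference kept its direction with each array left out, from 0.16 to 0.26. The second Cd53 probe set, below the signal threshold, differed by 1.04, with 1.10 in WT 3 against 3.76 to 4.78 elsewhere. Without WT 3 that probe set differed by -0.008. The mean of the 2 probe sets gave 0.63, which therefore rests largely on WT 3. Of all probe sets, 2.61% had every OC1-KO value above every WT value. Ptprc (CD45), the pan-leukocyte phosphatase, measured 5.46, 6.30 and 4.60 in WT and 5.78, 5.79 and 5.68 in OC1-KO retinas (0.30 ± 0.44), the OC1-KO values lying inside the WT range. The lysosomal membrane protein Laptm5 (0.26) and the integrin Itgam (0.01) had wide ranges, and for Laptm5 the mean of its 5 probe sets was -0.34.

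The purinergic receptors sense nucleotides released by injured or dying cells. P2ry12, the receptor that marks homeostatic microglia, measured 6.64, 7.14 and 7.27 in WT and 6.85, 7.56 and 7.31 in OC1-KO retinas (0.22 ± 0.25), with the genotypes overlapping. The P2ry12 difference was 0.04 without WT 1 and 0.07 without OC1-KO 2. P2ry6, the UDP receptor tied to phagocytosis, measured 1.89, 4.51 and 5.59 in WT and 4.01, 4.43 and 4.86 in OC1-KO retinas (0.44 ± 0.96), and its WT embryo 1 lay far below the rest.

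Apoe, the lipid carrier that takes up cholesterol from cleared cells and is also made by glia and pigment epithelium, had the smallest unadjusted p of the members above the threshold. It measured 7.69, 7.56 and 7.64 in WT and 7.98, 8.01 and 8.92 in OC1-KO retinas, with the OC1-KO retinas all above the highest WT retina. The difference was 0.67 ± 0.27 on the log2 scale, 1.59-fold, with an unadjusted limma p of 0.041 and an adjusted p of 1.00. A two-sided exact permutation test gave p = 0.1 for Apoe, as for Il34 and Cd53, the smallest that 3 against 3 allow. Much of the difference rested on OC1-KO 3, and without that array it was 0.37 with an unadjusted limma p of 0.056. The unadjusted limma p was also above 0.05 without WT 1 (0.077), WT 2 (0.099) or WT 3 (0.080), without both embryos numbered 3 (0.074), after quantile normalization (0.062) and in the fit to all probe sets (0.075). The 8 pigment epithelium genes summed to 389, 355 and 893 in WT and 550, 664 and 2215 in OC1-KO retinas, so that OC1-KO 3 was highest in these as in Apoe. Their part in the Apoe value was not tested.

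The other lysosomal and phagocytic members overlapped between the genotypes. Ctss (cathepsin S) measured 7.40, 8.07 and 8.43 in WT and 7.82, 8.36 and 8.31 in OC1-KO retinas (0.19 ± 0.29). Cd68, a lysosomal glycoprotein of phagocytes, measured 7.01, 6.84 and 6.44 in WT and 7.01, 6.94 and 6.50 in OC1-KO retinas (0.05 ± 0.26). Lyz2 (lysozyme) measured 6.09, 5.45 and 5.19 in WT and 4.91, 5.87 and 5.95 in OC1-KO retinas (-0.00 ± 0.40). Differences of these 3 were smaller than their SE, and Cd68 was lowest in embryo 3 of each genotype. Mpeg1, a pore-forming protein of phagosomes, differed by -0.15 and the galectin Lgals3 by -0.01, the latter with values from 0.29 to 4.41 across the arrays.

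Of the innate sensing members, Ly86 (MD-1), a partner of a receptor related to the Toll-like family, was the one above the threshold. It measured 7.11, 7.76 and 6.96 in WT and 7.82, 8.42 and 7.35 in OC1-KO retinas, a difference of 0.59 ± 0.33 with an unadjusted limma p of 0.117. The ranges overlapped, while the pairs differed by 0.71, 0.66 and 0.38. Without WT 2 or OC1-KO 3 its difference was 0.83 or 0.84, with unadjusted limma p of 0.047 and 0.034 and adjusted p of 1.00, and without OC1-KO 2 or WT 3 it was 0.31 or 0.43, with unadjusted limma p of 0.349 and 0.285. Aif1 (IBA1), the calcium-binding protein used to stain microglia, measured 5.25, 5.29 and 5.61 in WT and 5.12, 5.12 and 5.33 in OC1-KO retinas (-0.19 ± 0.20). OC1-KO 3 lay within the WT range and the other OC1-KO values below it. Cd14, a coreceptor for lipopolysaccharide, and Cybb, a subunit of the phagocyte oxidase, differed by 0.17 and -0.34. The 3 probe sets of Cybb, all below the signal threshold, gave differences from -1.56 to 1.06. Mrc1 (CD206), the mannose receptor of border macrophages, measured 4.41, 4.49 and 4.98 in WT and 4.47, 4.38 and 5.63 in OC1-KO retinas (0.20 ± 0.40), and Cd163, the haptoglobin-hemoglobin scavenger receptor, differed by -1.18 ± 0.89. With the offset of 32 the Cd163 difference was -0.051, and leaving out arrays moved it between -2.06 without OC1-KO 2 and -0.64 without WT 2.

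**Figure D3:**
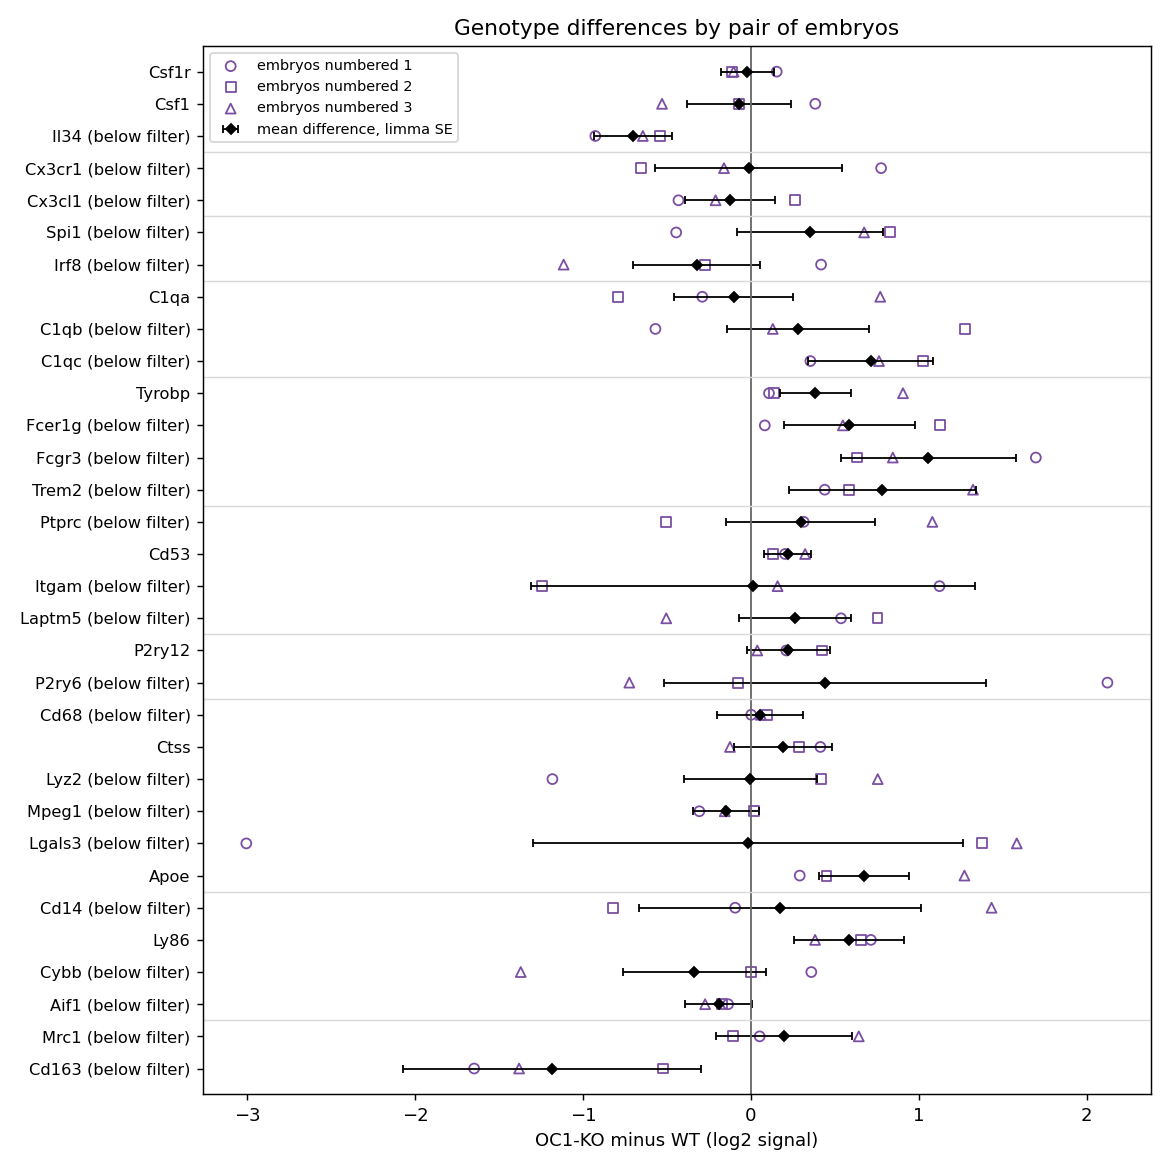
OC1-KO minus WT log2 signal for each of the 32 genes (horizontal axis, grey zero line): black diamonds with bars are the mean difference and its limma SE, and open purple symbols are the differences within embryos numbered 1, 2 and 3. All 3 pairs of Il34 lie below zero, and all 3 of Apoe, Cd53 and Ly86 above it, while Lgals3, Itgam and P2ry6 have the widest spread.

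A number of members were highest in the embryos numbered 3 of both genotypes. In 9 of the 32 both embryos numbered 3 lay above the other 4 arrays, which was true of 11.1% of all probe sets: Csf1, Cx3cr1, Fcer1g, Fcgr3, P2ry6, Mpeg1, Cd14, Aif1 and Mrc1. In 2, Trem2 and Cd68, both lay below, as for 18.0% of all probe sets. The second probe set of Cx3cr1 went against its brightest, with WT 3 and OC1-KO 3 below the other 4 arrays. The embryos numbered 3 had the higher mean in 23 of 32 members, with a median difference of 0.33 from embryos 1 and 2. The share of all probe sets with a higher mean in these embryos was not counted. Summed over the 32 genes, the linear signal was 2727, 2896 and 3362 in WT and 3077, 3365 and 3866 in OC1-KO embryos 1, 2 and 3. OC1-KO embryo 3 thus had the highest sum and WT embryo 1 the lowest, and each OC1-KO sum exceeded the WT sum of its number. Linear sums weigh bright genes most. Without Csf1, Il34, Cx3cl1 and Apoe the WT sums were 2306, 2466 and 2796 and the OC1-KO sums 2618, 2878 and 3120.

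Several non-retinal lists were also higher in the embryos numbered 3. The 9 periocular mesenchyme genes measured summed to 698, 512 and 2922 in WT and to 510, 724 and 2546 in OC1-KO retinas, and the 10 neutrophil and mast cell genes to 242, 231 and 424 in WT and 253, 325 and 590 in OC1-KO retinas. Other lists were not: the endothelial and pericyte genes summed to 2619, 2326 and 1911 in WT and 2813, 1998 and 1976 in OC1-KO retinas. Of these 3 lists, 1, 0 and 3 genes passed the signal threshold. Their part in the members' values was not tested.

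**Figure D4:**
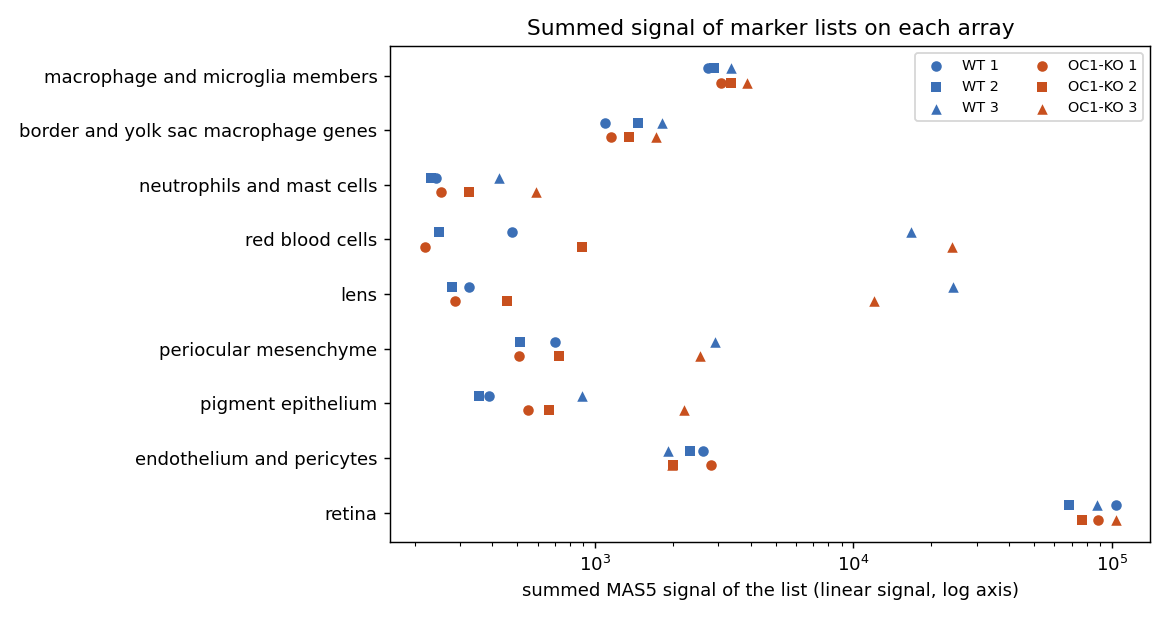
Linear signal summed over each marker list (horizontal axis, log scale) on each array, WT in blue and OC1-KO in orange, with the shape giving the embryo number. The lens and red blood cell lists are far higher in both embryos numbered 3, while the sum of the 32 genes ranges from 2727 to 3866.

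Further macrophage lists gave no adjusted call either. Of 12 microglia-enriched genes measured, 3 passed the signal threshold and 4 were higher and 8 lower in OC1-KO, with a median difference of -0.20. Its brightest genes, Sparc and Rgs10, differed by 0.01 and 0.04. Sparc was 1 of 4 genes of the list in which both embryos numbered 3 lay above the other 4 arrays, and in 1 other both lay below. Of 14 border and yolk sac macrophage genes 1 passed the threshold, with 8 higher and 6 lower and a median of 0.03, and the brightest were Maf (-0.11) and the endocytic adaptor Dab2 (-0.07). The 26 myeloid signalling genes had 16 higher and 10 lower, a median of 0.05, and Coro1a and Cyba, the brightest, differed by -0.07 and 0.01. By contrast, 13 of 14 lysosomal enzymes and transporters, which all cells use, passed the threshold, with a median of 0.04. The genes of signals read by macrophages also passed in 12 of 13, with a median of -0.07. The "don't eat me" signal Cd47 differed by -0.04 and the inhibitory ligand Cd200 by -0.00. Of the 8 T and B cell genes measured, 0 passed the signal threshold, and 2 of 7 genes of astrocytes and Müller glia did.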

How the data were processed

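RNA from the retinas of 6 embryos, 3 WT and 3 OC1-KO, was amplified and hybridised to 1 Affymetrix mouse genome array each. The deposited values are linear signal intensities that the authors made with MAS5 in R and Bioconductor, and each array has a trimmed mean of 500 (2% trimmed), so that levels are relative to the array. No source used here gives the MAS5 version. The number of arrays limits the precision.

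Values were log2-transformed here. Of 45037 probe sets (64 controls left out of 45101), 20888 with a mean log2 signal over 7 in either genotype, the filter of the study's methods, were fitted in R 4.3.3 as OC1-KO minus WT by limma 3.58.1 with lmFit, eBayes and Benjamini-Hochberg adjustment. A member below the filter was taken from the fit to all probe sets and is said to be below it. Genes were named through the platform annotation, in which 34958 probe sets carry 1 symbol. Tables and figures were made in Python 3.11.15 with pandas 2.3.3, numpy 2.4.6 and matplotlib 3.10.9. The fit was tested on simulated data. Each sample is a separate embryo.

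Members and lists were chosen with earlier results of these data known. Values on every array were given for 22 members fixed by their role. Members with an unadjusted limma p under 0.05, or with genotypes that did not overlap, were given likewise. Fcgr3 and Ly86 met none of these rules and were also given on every array. The rest, Cd163 with -1.18 among them, were given by their differences. Equal embryo numbers were taken as pairs from the data: the deviations of same-numbered arrays from their genotype means correlated at 0.51, 0.57 and 0.67, and those of other pairs at -0.44 to -0.04, with no statement of pairs in the labels. Deviations cancel within a genotype, so positive values in some pairs force negative ones in others. The pair counts and the block fit rest on this pairing. Alternatives were quantile normalization, no filter, a filter in both genotypes, an offset of 32, an intensity trend, the embryo block, the methods' t-test, the mean of a gene's probe sets, and leaving out each array or both embryos numbered 3.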

Additional observations from a re-analysis of the deposited data

How the results depend on the processing

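The adjusted count was 0 under every alternative that tested single probe sets, with 0 to 0 when arrays were left out. It was not taken for the mean of a gene's probe sets. At an unadjusted p under 0.05 in limma, the probe sets higher and lower in OC1-KO numbered 611 and 694 without a filter, and 327 and 586 with the embryo number as a replicate block, in which 2 members were higher instead of 1. Probe sets lower numbered 72 with a filter in both genotypes and 69 with an intensity trend, and the methods' t-test gave 160 higher, with Cd53 in place of Apoe among the members. The count of members higher was 0 after quantile normalization and 0 without a filter, where 1 was lower. With arrays left out, probe sets higher ranged from 61 to 252 and lower from 85 to 254, members higher from 0 to 1 and lower from 0 to 0, and the median difference from 0.038 to 0.36 above the threshold and from 0.06 to 0.35 over all 32 members.

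Of the single members' values, 221 kept their direction and their side of the adjusted threshold under alternatives that kept every array and 10 reversed. Reversed values were 0.022 for Lyz2 and 0.0061 for Lgals3 after quantile normalization, 0.0078 for Cx3cr1, -0.085 for Itgam, 0.0056 for Lyz2 and 0.0082 for Lgals3 with the offset, and 0.0024 for Csf1r, 0.39 for Irf8, -0.25 for C1qb and -0.34 for Laptm5 with the mean of all probe sets. With arrays left out, 186 kept and 38 reversed, in the ranges -0.11 to 0.068 for Csf1r, -0.38 to 0.25 for Csf1, -0.31 to 0.50 for Cx3cr1, -0.36 to 0.0031 for Cx3cl1, -0.033 to 0.73 for Spi1, -0.56 to 0.074 for Irf8, -0.54 to 0.26 for C1qa, -0.13 to 0.72 for Ptprc, -1.31 to 0.80 for Itgam, -0.61 to 1.24 for P2ry6, -0.11 to 0.21 for Cd68, -0.090 to 0.42 for Ctss, -0.38 to 0.33 for Lyz2, -1.06 to 0.81 for Lgals3, -0.72 to 0.69 for Cd14, -0.59 to 0.18 for Cybb and -0.20 to 0.42 for Mrc1. The cause of these reversals was not tested. The sign held with each array left out in 15 of 32 members, 5 of them above the threshold. Of the 11 members with several probe sets, 7 had differences of both signs among them. Signals below the threshold of 7 limit what 23 of the 32 genes can show.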

Other observations

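Genes of inflammation and activation were mostly low in these retinas. Of 23 measured, 6 passed the signal threshold, and 14 were higher and 9 lower in OC1-KO, with a median difference of 0.13. The cytokine gene Il6 was near the lower end of the signals on every array. Its log2 signal was -0.15, 0.43 and 0.67 in WT and 3.06, 3.71 and 4.06 in OC1-KO embryos 1, 2 and 3 (adjusted limma p of 0.429 in the fit to all probe sets). All 6 values were under 5, as was the mean over the arrays of 31.8% of all probe sets. H2-Eb1, a chain of the class II antigen-presenting complex, was below its WT values in every OC1-KO retina, at 5.79, 5.83 and 5.69 in WT and 3.44, 4.81 and 5.68 in OC1-KO, a difference of -1.13 ± 0.57 (limma SE, n = 3 per genotype). The separation in embryo 3 was between 5.69 and 5.68, and 2.88% of all probe sets had every OC1-KO value below every WT value.

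Among the lysosomal enzymes, Ctsa and Lgmn did not overlap between the genotypes. Ctsa (cathepsin A) was higher in every OC1-KO retina, by 0.15 ± 0.13, and Lgmn (legumain) lower in every one, with a difference of -0.12 ± 0.13, with adjusted limma p of 1.00 for both and differences about the size of their SE. These were 2 of 14 genes, beside 2.61% of all probe sets without overlap and higher and 2.88% lower. The brightest genes of the list, Npc2 and Lamp1, differed by 0.26 and -0.06.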
